A study of Bos taurus with 2 samples.

Results

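The genes described here carry the names of families whose proteins write, erase or read marks on chromatin. They are the non-control probes of a bovine array whose gene name is HDAC, SIRT, SETD, PRMT, SMYD, BRD or KAT with a number, begins with KDM, or is BRDT, EHMT1, EHMT2, EZH1, EZH2, DNMT1, DNMT3A or DNMT3B. The rule took 71 of the 32429 gene names on the array, covered by 190 probes and 198 spots. Testis RNA of crossbred bulls, which were Holstein Friesian crosses carrying 50 to 75% exotic inheritance, was set beside testis RNA of Zebu bulls of the Tharparkar breed. Each group consisted of 3 bulls aged 24 months. Testes came from unilateral castration, and equal amounts of RNA were pooled within each group. Each pool was labelled with Cy3 and hybridised to 1 array of the same slide. With 1 array per group no difference has a replicate check and none was tested, and breed, pool and array position cannot be told apart.

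Nucleosomes carry acetyl and methyl groups on the lysines and arginines of their histone tails, and DNA carries methyl groups on cytosines. Acetyltransferases and methyltransferases add these marks, deacetylases and demethylases remove them, and bromodomains bind acetylated lysines. In the testis these proteins are known for the silencing of the sex chromosomes in meiosis, for the wave of histone acetylation in elongating spermatids and for the exchange of histones for protamines.

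Signals are given as log2 of the processed signal relative to the 75th percentile of the array, which lay at 1176 intensity units for crossbred and 1233 for Zebu RNA. All differences are crossbred minus Zebu on the log2 scale. Signals stood well above background at 72.0% of non-control spots for crossbred and 74.3% for Zebu RNA. The SD of a difference between spots of the same probe was 0.34 over 5960 probes with replicate spots. The spot SD covers variation within an array only, and precision is limited by having 1 array per pool. Each gene was represented by its brightest probe, taken over the mean of both arrays, and was called detected if that probe passed the well-above-background flag on at least 1 array.

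Both arrays detected 69 of the 71 genes. SETD7 and SMYD1, which is known from heart and skeletal muscle, were not well above background on either array. Among all 190 probes, 168 passed that flag on both arrays, 3 for crossbred RNA alone, 4 for Zebu RNA alone and 15 for neither. In the bovine gene table of the ARS-UCD2.0 assembly 68 gene names matched a current symbol and 2 matched a synonym, SETD8 (now KMT5A) and PRMT10 (now PRMT9). KDM4D had no match. The matched genes lay on 24 chromosomes, with HDAC6, HDAC8, KDM5C and KDM6A on the X chromosome. The probes had a median GC content of 45%, the same as all probes of the array, and ranged from 28.3 to 70.0%.

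At a log2 difference of 1.5 or more, 3 of the 69 detected genes were higher in the crossbred pool, against 7.23% of all 24757 detected gene names. These were HDAC9, HDAC4 and SIRT4, or 4.35% of the genes. HDAC9 alone passed 1.5 with normexp background correction, where the background was 4.23%, and with the mean of all probes, where it was 6.01%. In the other direction 1 gene, SETD6, was lower by that much, which is 1.45% of the genes against 2.99% of all detected gene names. At a difference of 1 or more, KDM4C joined the higher genes to make 4, or 5.80% against a background of 12.9%. KDM1B and KDM6A joined SETD6 among the lower ones to make 3, or 4.35% against 8.94%. All 69 genes were on both arrays, and of the 22828 gene names on both arrays 6.41% were higher and 1.76% lower at 1.5, and 12.1% and 7.10% at 1. The genes with a difference within the spot SD numbered 25, or 36.2%, beside 35.8% of all detected gene names.

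The median difference over the 69 genes was -0.14, and the median over all detected gene names was -0.06. The difference was below 0 for 40 of the genes and above 0 for 29. That is 58.0% below 0, beside 53.0% of all detected gene names. Differences smaller than 0.5 in size were seen for 41 genes, or 59.4%, beside 49.6% of all detected gene names and 52.1% of those well above background on both arrays. The SD over the 69 genes was 0.67, over all detected gene names it was 0.99, and over those on both arrays 0.86. Across the 69 genes the levels on the arrays correlated at a Pearson r of 0.961, a value across genes, which are not independent replicates, and it was 0.954 across all gene names well above background on both arrays.

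**Figure D1:**
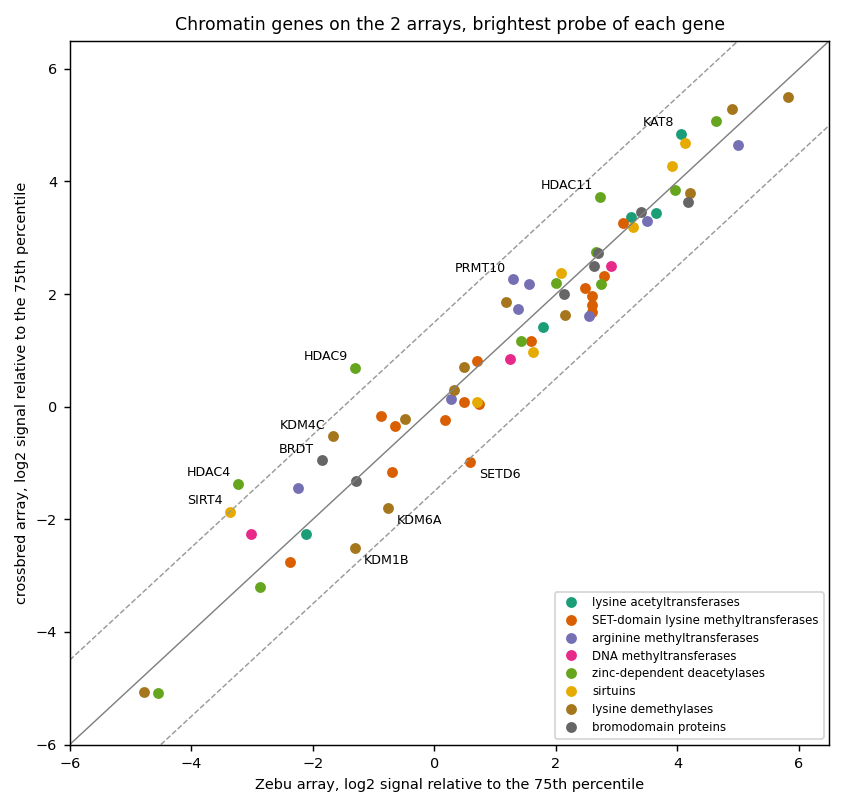
Signal of 69 chromatin genes on the Zebu array (x axis) and the crossbred array (y axis), both as log2 relative to the 75th percentile of the array, with 1 point per gene coloured by role. The solid line marks equal signal and the dashed lines a difference of 1.5. HDAC9 and HDAC4 lie above the upper dashed line, SIRT4 on it at 1.5, and SETD6 just beyond the lower one at -1.56.

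Zinc-dependent deacetylases remove acetyl groups from histones and other proteins. HDAC9 and HDAC4 belong to class IIa, whose members shuttle between nucleus and cytoplasm and repress MEF2 targets. HDAC9 read 0.69 for crossbred and -1.30 for Zebu RNA, differing by 1.99, the highest value of the 69 genes. Its second probe read -2.50 and -3.96, a difference of 1.46. Both HDAC9 probes were thus higher in the crossbred pool, and both passed the background flag on each array. HDAC4, with its brighter probe, read -1.37 for crossbred and -3.23 for Zebu RNA, differing by 1.87. The second HDAC4 probe passed the background flag for Zebu RNA alone, with measured values of -5.99 and -5.43. With the dim side at its bound that probe was at least 1.27-fold lower in the crossbred pool. It passed the flag only on the array where it read higher, so its direction is no separate reading for HDAC4. HDAC4 was at 1.46 with normexp background correction and at 0.76 with the mean of its probes. The median difference of the spots nearest the dim probe was -0.59, the lowest at any spot of these genes.

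The probes of both genes are shown because the HDAC9 pair goes one way and the HDAC4 pair differs in sign. That difference in sign rests on a dim probe that passed the flag for Zebu RNA alone. Positions are on the HGSC Btau_3.1 build, as the files give them. The brighter HDAC9 probe is at chr4:28489058-28510207 on the plus strand and the second at chr4:28751579-28811036. Both spans are far longer than the 60 bases of a probe, as for a probe that joins exons. The brighter HDAC4 probe is at chr3:125806002-125806061 on the minus strand and the dim one at chr3:125849318-125854080, again across more than 60 bases. Every probe shown has at least 1 forward reading frame with no stop codon. Capitals mark the 34 bases that the brighter HDAC9 probe and the dim HDAC4 probe have in common over 54 aligned bases without gaps, where the genes are related in sequence. Among detected probes of the zinc-dependent deacetylases no other pair from different genes matched at more bases, out of 239 pairs.
HDAC9 brighter probe: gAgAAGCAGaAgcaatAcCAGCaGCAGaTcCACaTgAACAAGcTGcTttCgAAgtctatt
HDAC9 second probe: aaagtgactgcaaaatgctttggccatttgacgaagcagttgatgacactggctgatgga
HDAC4 brighter probe: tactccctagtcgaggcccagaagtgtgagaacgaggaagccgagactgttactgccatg
HDAC4 dim probe: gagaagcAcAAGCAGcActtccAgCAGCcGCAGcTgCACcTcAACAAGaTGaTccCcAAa

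HDAC11, the single class IV enzyme, followed at 3.73 for crossbred and 2.73 for Zebu RNA, and its 2 spots differed by 1.03 and 0.96. Its second probe, which stands nearer the start of the transcript, read -0.23 for crossbred RNA and differed by 1.77. Both HDAC11 probes were therefore higher in the crossbred pool, and the second lay past 1.5. HDAC5, another class IIa enzyme, differed by 0.43 and its second probe by 0.29, and HDAC7, the last of that class, by -0.33 and -0.07. The class thus did not go one way as a whole.

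Class I enzymes form the catalytic core of nuclear corepressor complexes. HDAC1 read 3.84 for crossbred and 3.97 for Zebu RNA, differing by -0.13, and the second probe gave -0.44. HDAC2 read 1.17 and 1.43, a difference of -0.26. A second HDAC2 probe differed by -0.24, while the last was well above background on the crossbred array alone and at least 1.38-fold higher there. HDAC3, the enzyme of the NCoR and SMRT complexes, was the lowest of the deacetylases, at 2.19 and 2.74, a difference of -0.55. Its second probe differed by -0.90. With its brightest probe left out HDAC2 was at 0.11. That mean includes the probe detected on the crossbred array alone, so the change of sign gives no direction. Within class I only HDAC3 and HDAC8 exceeded the spot SD in size at the brightest probe. HDAC8 differed by -0.53 from 1 probe at -5.08 for crossbred and -4.55 for Zebu RNA. The lowest signals well above background were -5.78 and -5.94. HDAC6, the tubulin deacetylase, differed by 0.20, 0.22 and 0.24 at its 3 detected probes, a pair of which shares 30 bases. Over the 11 deacetylases the median difference was 0.08, with 6 above and 5 below 0, and it turned to -0.01 under quantile normalization and with the mean of all probes.

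**Figure D2:**
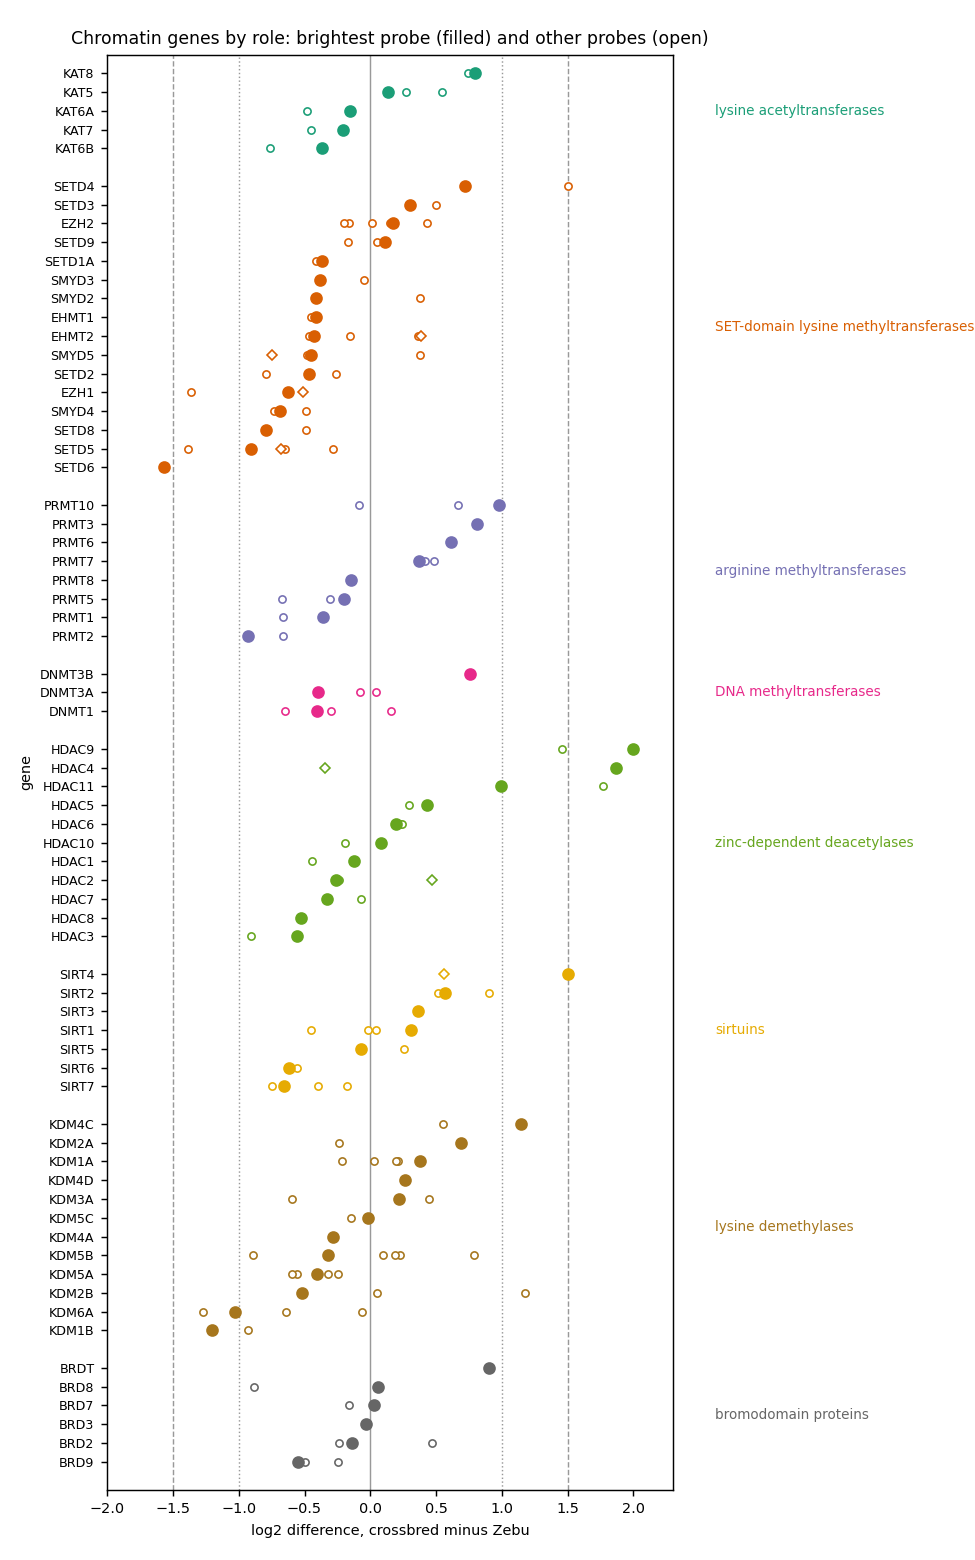
Log2 difference, crossbred minus Zebu (x axis), of 68 chromatin genes (y axis) grouped by role, with 1 of the 69 detected genes not drawn. Filled circles are the brightest probe of a gene, open circles its other probes well above background on both arrays, and open diamonds probes well above background on 1 array, with the dim side at its bound. Dashed lines mark 1.5 and dotted lines 1 in either direction. Few filled circles pass the dotted lines: 4 to the right and 3 to the left.

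Sirtuins are deacetylases and deacylases that use NAD. SIRT4, a mitochondrial sirtuin, read -1.86 for crossbred and -3.37 for Zebu RNA, differing by just over the threshold of 1.5. Under 5 of the alternative treatments of spots or scaling it stood just below 1.5, and it was 1.07 with normexp background correction and 1.03 with the mean of its probes. Its second probe was well above background on the crossbred array alone, at -5.31 and -5.87, which makes it at least 1.47-fold higher. The dim probe passed the flag only on the array where it read higher, so its direction is no separate reading. Both probes are shown because the gene stands at the threshold. The brighter is at chr17:65909901-65910262 on the plus strand and the dim one at chr17:65907189-65907248.
SIRT4 brighter probe: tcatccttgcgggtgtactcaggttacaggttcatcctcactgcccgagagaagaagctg
SIRT4 dim probe: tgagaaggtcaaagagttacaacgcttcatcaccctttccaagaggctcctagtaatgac

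SIRT2, a mostly cytoplasmic tubulin deacetylase, read 4.69 for crossbred and 4.12 for Zebu RNA. Its 3 probes differed by 0.56, 0.90 and 0.52. SIRT1, a nuclear deacetylase of histones and transcription factors, read 2.38 and 2.08, a difference of 0.31, but its other 3 probes lay between -0.45 and 0.04. No direction can therefore be given for SIRT1. The lowest sirtuin was SIRT7, which is found in the nucleolus, at 0.96 and 1.62, a difference of -0.66. All 3 of its other probes were also lower in the crossbred pool, from -0.75 to -0.18, and a pair of SIRT7 probes shares 18 bases. SIRT6, a sirtuin of chromatin and DNA repair, differed by -0.62 and -0.56 at its 2 detected probes. The median of all 7 was 0.31, the value of SIRT1, and it was 0.16 under quantile normalization, 0.09 with the mean of all probes and 0.06 over 6 genes with the brightest probe left out.

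Lysine acetyltransferases are the writers of acetyl marks. KAT8, which acetylates histone H4 and is the catalytic subunit of the MSL and NSL complexes, read 4.85 for crossbred and 4.06 for Zebu RNA, differing by 0.79. Its second probe differed by 0.74. KAT5, the acetyltransferase of the TIP60 complex, read 3.36 and 3.23, a difference of 0.13, with 0.27 and 0.55 at the other probes. KAT6B was the lowest of the group at 1.42 and 1.78, a difference of -0.36, and the second probe gave -0.76. KAT6A and KAT7, of the same MYST family, differed by -0.16 and -0.21. The 5 genes had a median of -0.16, which was -0.32 with the mean of all probes and -0.45 with the brightest probe left out. KAT8 and KAT5 stood above 0 and KAT6A, KAT6B and KAT7 below. The direction of KAT5 turned to -0.01 under quantile normalization.

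The SET-domain lysine methyltransferases leaned to lower values in the crossbred pool. Of the 16 detected, 12 were below 0, or 75%, beside 53.0% of all detected gene names, and their median was -0.42. The median was -0.37 with the mean of all probes. With the brightest probe left out it was -0.33, with 10 of 15 below 0. SETD6, a methyltransferase of the NF-kappaB subunit RelA, read -0.98 for crossbred and 0.59 for Zebu RNA. The difference of -1.56 was the lowest of the 69 genes, and SETD6 has 1 probe, so no other probe bears on it. With normexp background correction it was -1.31, short of 1.5. SETD5 read 1.68 and 2.59, a difference of -0.90. Its other probes on both arrays were lower in the crossbred pool as well, from -1.39 to -0.28. A further probe, not above background for crossbred RNA, was at least 1.60-fold lower. It passed the flag only where it read higher, so its direction is no separate reading. SETD8, which places single methyl groups on histone H4, differed by -0.79 and -0.49. SETD2, the enzyme of trimethylation in the body of transcribed genes, differed by -0.47 with its brightest probe, and its other detected probes by -0.79 and -0.26. EZH1 and EZH2 are the alternative catalytic subunits of Polycomb repressive complex 2, and they did not move together. EZH2 read 3.27 for crossbred RNA and differed by 0.17, and its 6 probes ranged from -0.20 to 0.43. EZH1 read 1.97 and 2.59, a difference of -0.63, and the other EZH1 probe on both arrays was also lower, at -1.36. The last EZH1 probe passed the flag for Zebu RNA alone and was at least 1.42-fold lower in the crossbred pool. Having passed only on the array where it read higher, that probe gives no separate reading of direction. EHMT2, which methylates histone H3 in silent chromatin, read 1.17 and 1.60, a difference of -0.43, and the other probes on both arrays ranged from -0.46 to 0.37. One more, detected for crossbred RNA alone, was at least 1.31-fold higher there. Its partner EHMT1 differed by -0.41 and -0.45. The highest of the group was SETD4, at -0.17 and -0.88, a difference of 0.72. Its second probe read -0.73 and -2.23, a difference of 1.5.

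Arginine methyltransferases were split evenly, with 4 above and 4 below 0 and a median of 0.11. Over the 5 genes with another detected probe the median was -0.20 at the brightest probe and -0.49 at the others. PRMT10 was the highest, at 2.27 for crossbred and 1.30 for Zebu RNA, differing by 0.98. Its other probes differed by 0.66 and -0.09, so that the probe nearest the end of the transcript did not show the difference. PRMT2 was the lowest, at 1.62 and 2.55, a difference of -0.93, with -0.67 at its second probe. PRMT5, which forms symmetric dimethylarginine and acts in germ cells, read 3.30 and 3.50, a difference of -0.20, and the other probes gave -0.31 and -0.67. PRMT1, the main enzyme of asymmetric dimethylation, differed by -0.36 and -0.66. PRMT7 went the other way at each of its 3 probes, by 0.37, 0.42 and 0.48, though a pair of them shares 20 bases.

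Among the DNA methyltransferases, DNMT1 copies methylation to new strands at replication, and DNMT3A and DNMT3B set it de novo. DNMT1 read 2.50 for crossbred and 2.90 for Zebu RNA, differing by -0.40, and its other 3 probes ranged from -0.65 to 0.16. DNMT3A read 0.84 and 1.24, also a difference of -0.40, while its other probes stood at -0.08 and 0.05. DNMT3B, with 1 probe, read -2.26 and -3.02, a difference of 0.75. The median of the 3 was -0.40, and it was -0.14 with the mean of all probes.

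Lysine demethylases remove methyl groups by flavin-dependent oxidation (KDM1A, KDM1B) or with a jumonji domain. KDM4C, a jumonji demethylase of histone H3, read -0.52 for crossbred and -1.67 for Zebu RNA, differing by 1.15, with 0.55 at its second probe. KDM1B was the lowest demethylase, at -2.51 and -1.31, a difference of -1.20, and the second probe gave -0.93. Its paralogue KDM1A read 5.28 and 4.90, a difference of 0.38, with the other 4 probes between -0.22 and 0.21. The flavin-dependent pair therefore differed in opposite directions at the brightest probe. KDM6A, the X-linked demethylase that counters Polycomb methylation, read -1.80 and -0.77, a difference of -1.03. Its other 3 detected probes were lower in the crossbred pool too, at -1.28, -0.64 and -0.06, and the smallest of these differences came from the probe nearest the start of the transcript. KDM3A, which is required for protamine and transition protein genes in mouse spermatids, read 0.71 and 0.49, a difference of 0.22, and the other probes gave 0.45 and -0.59. KDM4D, a demethylase known for strong expression in testis, read -0.22 and -0.49, a difference of 0.27, from 1 probe. At the brightest probe neither of these genes with known roles in male germ cells differed by more than the spot SD. KDM5A was lower at each of its 5 probes, from -0.59 to -0.25. Over the 12 demethylases the median was -0.15, with 5 above and 7 below 0, and the mean of all probes brought it to 0.00 with 6 on either side.

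KDM2B and KDM5B, with HDAC4, were the 3 genes whose detected probes lay more than 1.5 apart with dim sides at their bound. KDM2B, which recruits a Polycomb complex to unmethylated CpG islands, read 1.63 for crossbred and 2.15 for Zebu RNA, differing by -0.52 from 2 spots that gave -0.47 and -0.58. Its second probe read -1.48 and -2.65, a difference of 1.18, and the last differed by 0.05. KDM5B, which demethylates histone H3 at promoters, read 5.49 and 5.82, a difference of -0.32. Its 7 probes spread from -0.89 to 0.79, 4 above and 3 below 0, so the array gives no single direction for KDM5B. The pair at the extremes is shown, with open reading frames. The higher probe is at chr16:77774985-77775044 and the lower one at chr16:77737094-77737135, both on the minus strand. The span given for the lower probe is 42 bases, shorter than the probe, so that its place is uncertain. They read 2.40 and 1.61 for the higher, and -2.12 and -1.23 for the lower.
KDM5B highest probe: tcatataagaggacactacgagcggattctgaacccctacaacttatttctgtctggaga
KDM5B lowest probe: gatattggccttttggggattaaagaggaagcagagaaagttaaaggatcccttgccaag

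**Figure D3:**
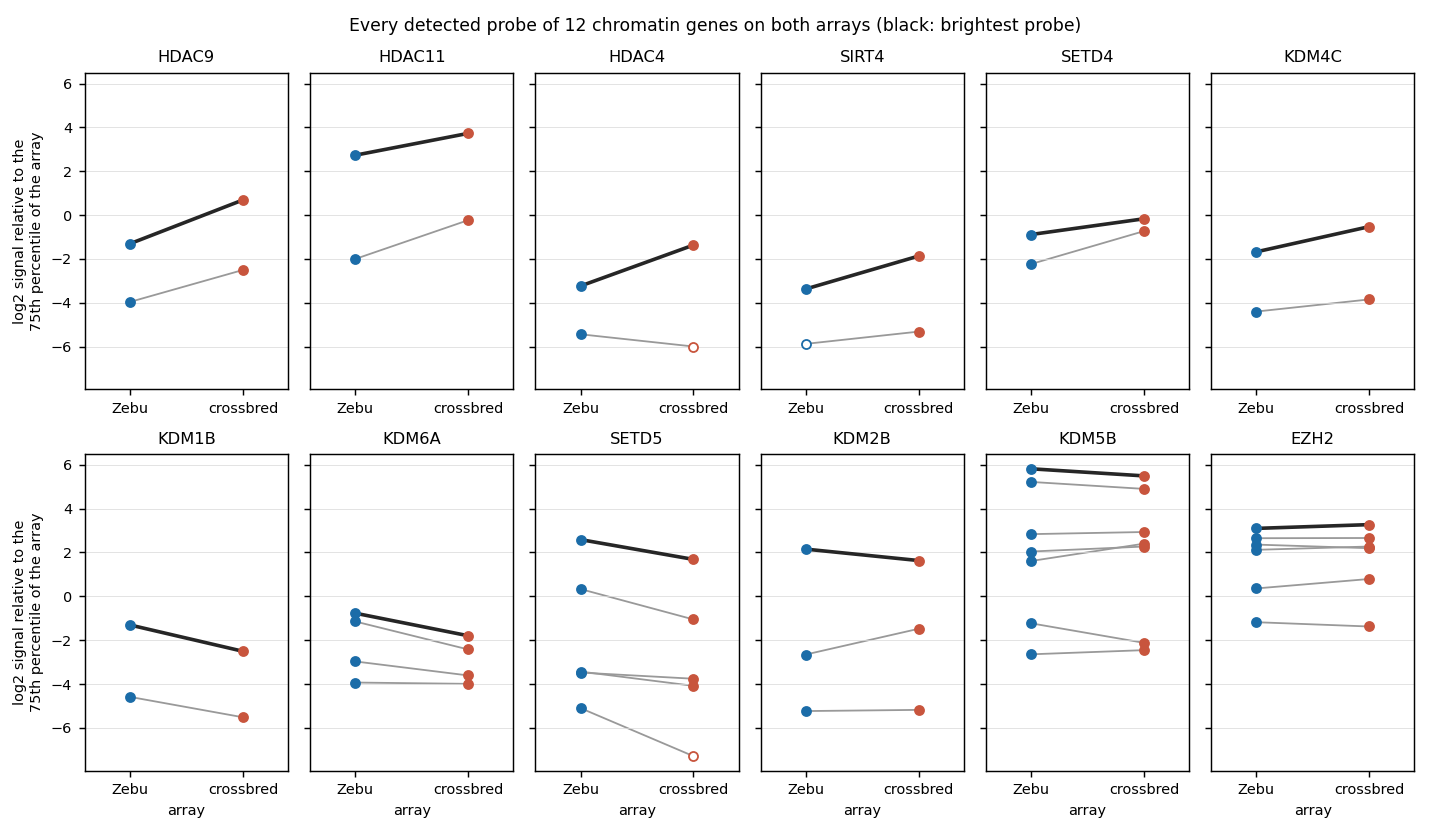
Log2 signal relative to the 75th percentile of the array (y axis) of every detected probe of 12 genes on the Zebu and crossbred arrays (x axis). Each line joins the values of 1 probe, black for the brightest, and open symbols are not well above background. The lines of HDAC9, HDAC11, SETD4 and KDM4C are all higher on the crossbred array, those of KDM1B, KDM6A and SETD5 all lower, and those of HDAC4, KDM2B and KDM5B go both ways. HDAC4 and SETD5 each have a line of a probe that passed the background flag on the Zebu array alone.

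Bromodomain proteins are the readers of acetylated lysine. BRDT, the BET protein of the male germ line that is needed for histone removal in spermatids, read -0.95 for crossbred and -1.86 for Zebu RNA, differing by 0.91 from 1 probe. It was the highest of the group. BRD9, a subunit of a SWI/SNF complex, was the lowest, at 3.63 and 4.18, a difference of -0.55, and the other probes gave -0.50 and -0.25. BRD2, which binds acetylated histone H4, differed by -0.14, and its paralogue BRD3 by -0.03. Over all 7 genes the median was -0.03, and 5 were within 0.5 of 0, so BRDT stood apart from BRD2 and BRD3. The median of the group was 0.02 with normexp background correction and -0.16 over 5 genes with the brightest probe left out. Quantile normalization put 1 gene above and 6 below 0, in place of 3 and 4.

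Several probes of a gene were compared to see how far a value depended on the probe. Besides the brightest probe, 106 probes of 58 genes passed the background flag somewhere and gave a value. Of these 77, or 72.6%, went the same way as the brightest probe, beside 74.2% over all gene names with several probes. For genes whose brightest probe differed by 0.5 or more, 30 of 35 other probes went the same way, or 85.7%, beside 81.9% over all gene names. The brightest and the second probe of 56 genes correlated at a Pearson r of 0.709 and a Spearman rho of 0.695, with a median gap of 0.27. Over all 8181 such gene names r was 0.604 and the gap was 0.25. These correlations are across genes within the same arrays. All detected probes pointed one way for 36 of the 58 genes, or 62.1%, beside 66.5% of all gene names. Probe agreement was thus much as on the rest of the array, and 8 of the genes had a pair of probes that share 18 to 54 bases and are not separate readings. These genes were EZH2, HDAC6, KDM5B, PRMT5, PRMT7, SIRT1, SIRT7 and SMYD5.

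The place of a probe along its transcript was also looked at. For transcripts with probes at least 300 bases apart and well above background on both arrays, the probe nearest the start was set beside the one nearest the end. Over 49 transcripts of these genes the median difference was -0.06 at the first probe and -0.21 at the last. Over all 6296 such transcripts it was 0.01 and -0.19. Within a transcript the first probe exceeded the last by a median of 0.05 here and 0.09 over all. The first probe gave the higher difference for 55.1% of the transcripts here and for 58.3% of all, and the part of probe position in the differences of single genes was not tested.

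No spot of these genes fell in the dark or the bright patch of the crossbred array. Those areas hold 544 and 105 non-control spots. The median difference of the 18 nearest spots lay between -0.59 and 0.61 at all 198 spots, and none was beyond 1. At the brightest probes of HDAC9, SIRT4 and SETD6 it was 0.25, 0.07 and 0.06. The 8 probes printed in duplicate gave differences at most 0.14 apart, with a median gap of 0.08.

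**Figure D4:**
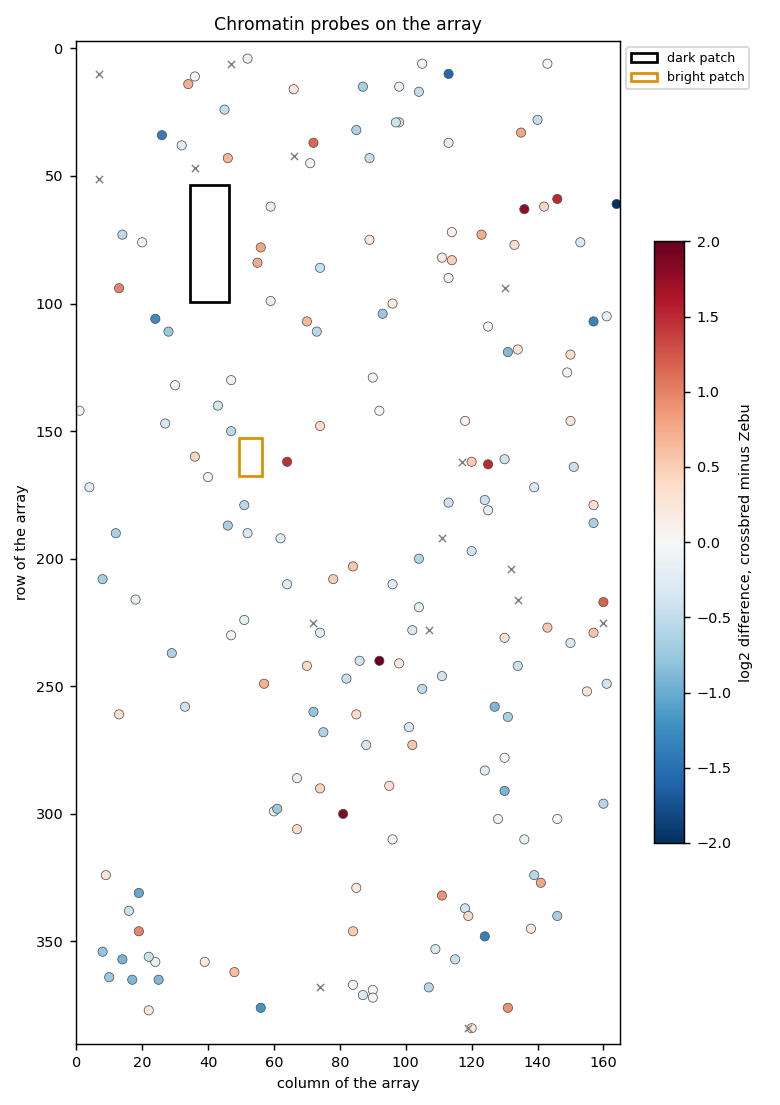
Place of 190 chromatin probes on the array by column (x axis) and row (y axis), with 1 spot per probe, coloured by the log2 difference, crossbred minus Zebu. Crosses are probes not well above background on either array, and the rectangles are the dark and bright patches of the crossbred array. None of the probes lies inside a patch.

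Genes that work with these enzymes were read in the same way. Of the related chromatin genes outside the rule, 139 were on the array and 138 were detected. Their median difference was -0.15, and 4, or 2.90%, were higher at 1.5 or more beside 7.23% of all detected gene names. By measured values 2, or 1.45%, were lower beside 2.99%, namely SETDB1 and CBX2, and CBX2 did not reach 1.5 with its dim side at the bound. For 5 of the 138 the brightest probe had its spot in a patch, SETDB1 among them, and without these 3 were higher and the median was -0.13. Among acetyltransferases and coactivators the highest was ING5, a subunit of MYST complexes, at 0.09 for crossbred and -1.83 for Zebu RNA, differing by 1.92. The lowest was BRPF1, a scaffold of the same complexes, at 0.75 and 1.65, a difference of -0.90. The deacetylase corepressor complexes had a median of -0.32 over 24 detected genes, with 15 below 0. RCOR1, the CoREST scaffold that binds KDM1A to HDAC1 and HDAC2, was the highest at -1.49 and -3.39, a difference of 1.90, and the second probe gave 1.55. Its paralogue RCOR2 was the lowest at 1.90 and 2.84, a difference of -0.94. The enzymes these scaffolds hold, KDM1A, HDAC1 and HDAC2, each differed by less than 0.4 in size at the brightest probe.

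The Polycomb proteins had a median of -0.01 over 27 genes. PHF19, an accessory subunit of Polycomb repressive complex 2, was the highest at -3.75 for crossbred and -5.25 for Zebu RNA, differing by 1.49. CBX6, a chromodomain protein, was the lowest of those on both arrays at -0.98 and 0.26, a difference of -1.25. Its relative CBX2 did not pass the background flag for crossbred RNA and differed by -1.13 with that side at its bound. Of its other probes 2 went the same way and 1 the other way, each having passed the flag on 1 array only. In the list of Trithorax and other methyltransferase genes the median was 0.00 over 21 genes. Its highest was CARM1, an arginine methyltransferase of the PRMT family, at -0.46 and -2.58, a difference of 2.12. Its lowest was SETDB1 at -2.95 and 1.49, but that probe lies in the dark patch, and the second SETDB1 probe differed by -0.35. Outside the patches the lowest was NSD1 at 0.41 and 1.88, a difference of -1.48.

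The 13 detected demethylases outside the rule, with a median of -0.13, ran from PADI4 at 0.66 to JMJD5 at -0.83, and none passed 1. The DNA methylation genes had a median of -0.50 over 11 genes. MBD1, a methyl-CpG binding protein, was their highest at 0.60, and TET2, which oxidises methylcytosine, their lowest at -1.45. The bromodomain genes outside the rule had a median of -0.23 over 21 genes. ATAD2 read 0.16 and -1.30, a difference of 1.46, although its second probe differed by -0.25. ZMYND8 was the lowest at 0.61 and 1.73, a difference of -1.11, with its other 6 probes between -1.06 and 0.87.

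The tissue was checked by marker genes, and the levels of several lists differed between the pools. Spermatid markers were higher in the crossbred pool for all 19 detected of 20, with a median difference of 1.86. Their summed signal was 991463 units for crossbred and 449113 for Zebu RNA, and PRM1 was the brightest. Several of these markers, such as SPEM1, CABS1, TNP2, PRM3 and ODF1, are genes the study itself reports as upregulated from these arrays. The list is therefore no separate reading of direction. In the study's qPCR TNP1 and TNP2 were also higher in crossbred bulls, while SPEM1 took the opposite trend to the array. Spermatocyte markers had a median of 0.51, with 15 of 17 above 0, sums of 198165 and 147972 and SYCE3 as the brightest. Spermatogonium markers had a median of -0.59, with 9 of 12 below 0, sums of 40569 and 60078 and UCHL1 as the brightest, while LIN28A was not above background. For Sertoli cells the median was -0.82, with 9 of 10 below 0 and sums of 186576 and 302771. CLU was their brightest gene, and INHBB and ABP1 were not above background. Leydig cell markers had a median of -0.51, with 8 of 10 below 0, sums of 117205 and 179711 and INSL3 as the brightest. All 8 peritubular and smooth muscle markers were below 0, with a median of -0.77, sums of 52078 and 92170 and ACTA2 as the brightest. Markers of germ cells, Sertoli cells and Leydig cells, the cells of testis, were thus detected on both arrays.

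Markers of cells that are few in testis went both ways within each list. The endothelial list had a median of 0.02 and summed signals of 7302 and 3718, with CLDN5 the brightest at 1.54. Macrophage markers had a median of 0.20 and sums of 22304 and 12486. CD14 was their brightest gene, AIF1 differed by 1.95, and the others on both arrays lay between -0.20 and 0.56. Lymphocyte markers had a median of -0.01 and sums of 7329 and 8518, and red blood cell markers 0.21 and sums of 2223 and 3694. The 4 detected red blood cell markers ranged from -2.15 to 1.98. Spermatid and spermatocyte markers were thus mostly higher, and those of spermatogonia and of Sertoli, Leydig and peritubular cells mostly lower, in the crossbred pool. In pooled tissue, fewer cells of a type and less RNA per cell cannot be told apart. Among the chromatin genes BRDT at 0.91, KDM4D at 0.27 and KDM3A at 0.22 lay below the spermatid marker median of 1.86. HDAC9 and HDAC4 were at about that size. The part of cell composition in the differences of the chromatin genes was not tested.

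**Figure D5:**
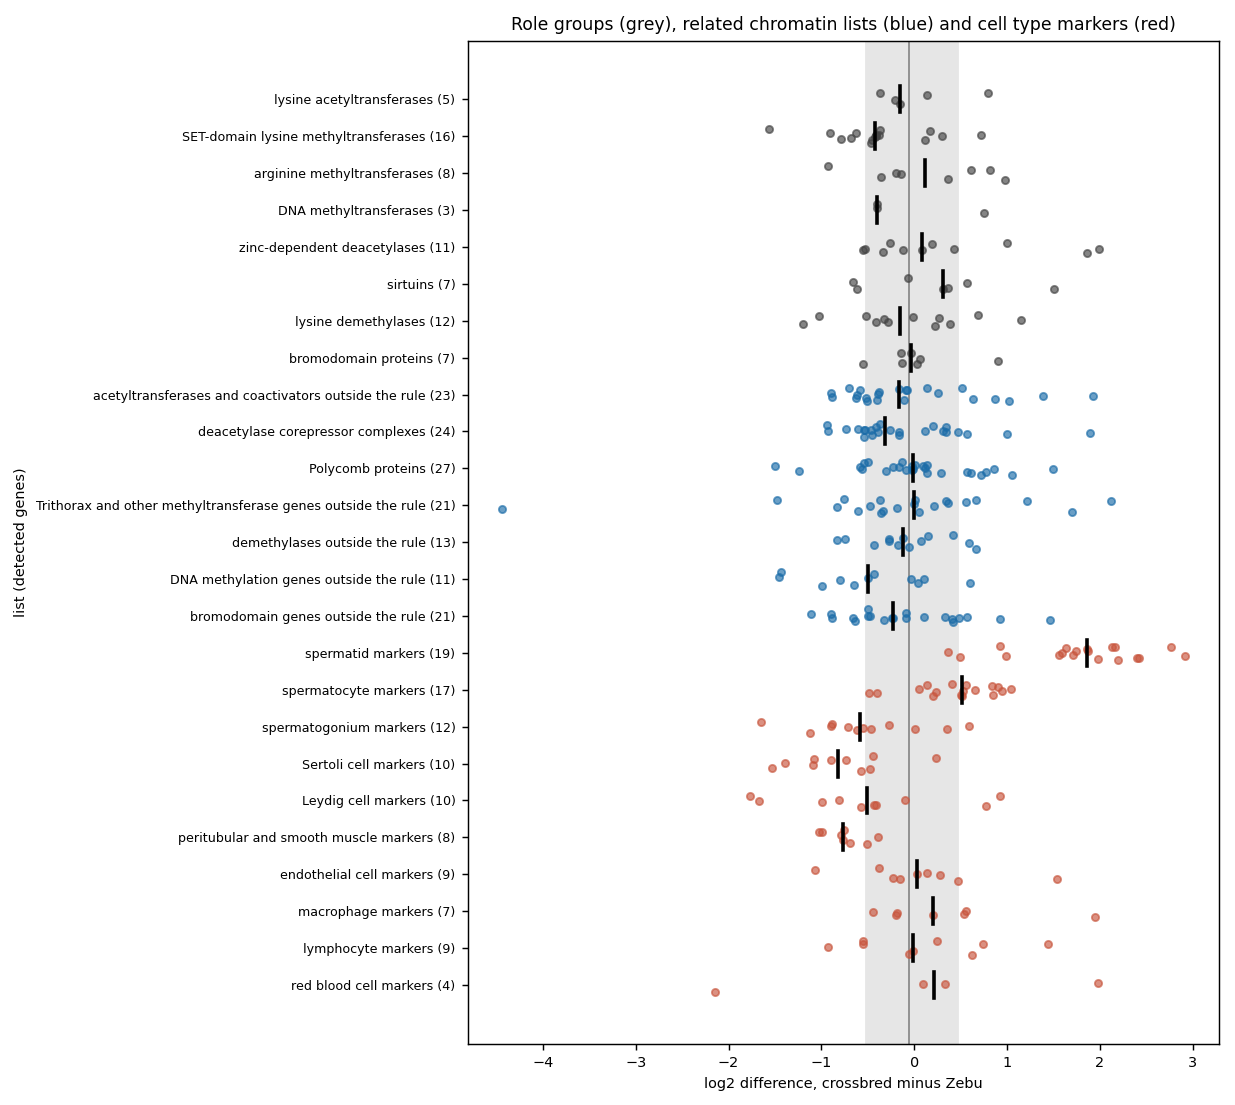
Log2 difference, crossbred minus Zebu (x axis), of detected genes in each list (y axis, number of detected genes in brackets). Points are genes, black bars the median of a list, the grey line the median of all detected gene names at -0.06 and the grey band their middle 50%. Spermatid markers stand to the right with a median of 1.86, while the medians of the 8 role groups lie between -0.42 and 0.31.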

How the data were processed

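The authors pooled RNA of 3 bulls per group, labelled it by oligo-dT primed amplification and read both arrays with Agilent Feature Extraction 11.5.1.1, which per the file headers subtracted background and detrended the processed signal intensity. The authors also deposited log2 values shifted to the 75th percentile, with medians of -3.00 and -3.01. Their differences followed those computed here at a Pearson r of 0.988 across probes. Here log2 processed signals were averaged over spots of a probe, 13 outlier spots were left out, and the 75th percentile over probes was subtracted. A gene counted as higher or lower by its measured difference if its brighter side passed the background flag. For bounds, a dim side took the higher of its own signal and the lowest signal well above background.

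Members and lists were chosen with earlier results of these data known. Named genes were those past 1.5, the highest and lowest of each role group and related list, those with probes over 1.5 apart, and 15 set by name; further members were named after their values were seen. Alternatives used normexp in limma 3.58.1 (offset 50), other scalings, probes, spots, filters and thresholds. Steps were tested on simulated data. Python 3.11.15, numpy 2.4.6 and pandas 2.3.3 were used.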

Additional observations from a re-analysis of the deposited data

How the results depend on the processing

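The median difference over the chromatin genes was -0.14 and ranged from -0.20 to -0.06 under 11 alternatives. Counts at 1.5 were 3 higher and 1 lower. With normexp background correction they were 1 and 0, beside 4.23% and 0.707% of all gene names, and 1 gene was lower at 1 or more in place of 3, beside 3.76%. HDAC4 was then at 1.46, SIRT4 at 1.07, SETD6 at -1.31 and KDM1B at -0.96. With the mean of all detected probes 1 gene was higher, beside 6.01%, with HDAC4 at 0.76 and SIRT4 at 1.03. With the brightest probe left out, an alternative chosen after seeing the data, 2 genes were higher at 1.5, beside 3.82%, and these were HDAC11 and SETD4. HDAC9 was then at 1.46 and SIRT4 at 0.56. In that setting 0 genes were lower at 1.5 and 0 at 1, beside 1.35% and 5.67%, SETD6 having no other probe, and HDAC4 reversed to -0.34. There 7 of 26 named genes changed sign: HDAC4, HDAC2, EHMT2, KDM2B, KDM3A, KDM5B and SIRT1. The values of HDAC4, HDAC2 and EHMT2 rest on or include a probe that passed the flag on 1 array only. Their change of sign therefore gives no direction. A threshold of 2 left 0 higher and 0 lower, beside 3.56% and 1.26%. With a linear fold of 1.5 there were 13 higher and 10 lower genes, beside 21.5% and 22.3%. The cause of these changes was not tested. Under the other alternatives KAT5 changed sign with quantile normalization, and KDM2B and SIRT1 with the mean of all probes. The other scalings shift all genes nearly alike. No paired analysis was possible because each group has 1 array. Signal over background limits the probes detected on 1 array only, among them those of HDAC4, SIRT4, HDAC2, EHMT2, EZH1 and SETD5. The number of arrays limits all values.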
